A study of Mus musculus with 4 samples.

Results

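Mecom+Hlf+ cells are single Kit+ bone marrow cells chosen for their transcripts of 2 stem cell transcription factors and for the absence of 2 lymphoid transcripts. A cell was selected when it held at least 2 unique molecular identifiers (UMIs, each standing for 1 captured transcript) of Mecom, at least 1 of Hlf, and none of Flt3 or Dntt. Quality limits came first: a cell needed 500 genes and 1000 gene UMIs or more, with mitochondrial UMIs at 10% or less. Of 36459 cell barcodes, 34122 met the quality limits, and 812 of those were Mecom+Hlf+ cells. Because the cells were selected on these 4 genes, the levels of Mecom, Hlf, Flt3 and Dntt are a description only. Mecom lies at chr3:29951296-30548008 and Hlf at chr11:90336536-90390895, both on the minus strand of GRCm38.

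Surface antibodies and RNA were counted together in each cell (CITE-seq). The mouse cells were CD45.2+Kit+ bone marrow cells taken 10 weeks after a transplantation, a design in which CD45.2 usually tells donor from host cells. Each group has 1 library: a control, the single alterations Mll3SI and Mll4SI, and the combined Mll3/4SI. The labels do not spell out SI, and the library names call the same groups wt, mll3KI, mll4KI and dKI. Strain, age, the number of animals, the transplant recipients and the meaning of the 2 hashtag antibodies are not given in the sources used here. With 1 library per group there is no replicate check of any difference between groups. Every interval below is a 95% interval for counting error only, since cells of 1 library are not replicates.

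As background, haematopoietic stem cells sit at the top of blood formation and are found among Kit+ marrow cells. Mecom and Hlf encode transcription factors needed for their long-term maintenance. Flt3 marks multipotent and lymphoid-primed progenitors, and Dntt encodes the terminal transferase of early lymphoid cells. On the surface, long-term stem cells of the mouse carry CD150 and lack CD48, while most early progenitors carry CD48. MLL3 (Kmt2c) and MLL4 (Kmt2d) are histone methyltransferases that act at enhancers, and the groups ask how their alteration, singly and together, bears on these cells.

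Mecom+Hlf+ cells had median depths of 21806, 18219.5, 21715 and 24194.5 UMIs (libraries always), above the 13433.5 to 19605 of the other cells. Summed over these cells, the libraries held 5085599, 7023417, 3928706 and 2385390 gene UMIs. The X-inactivation transcript Xist reached 2175 and 2223 CPM (UMIs per 1000000 gene UMIs of the same cells) in Mll4SI and Mll3/4SI, against 0 and 0.427 in control and Mll3SI. The Y-linked Uty was at 94.8 and 108 CPM in control and Mll3SI and at 0 in the others. Sex and group therefore cannot be told apart in Mll4SI or Mll3/4SI against control, and Mll3/4SI was also compared with Mll4SI. Pairs of libraries shared 16 to 29 barcodes, and 8 of the 812 cells had a barcode also found in another library. Kmt2c was at 161, 138, 158 and 146 CPM and Kmt2d at 38.3, 35.2, 37.7 and 25.2 CPM. The labels do not say which part of either gene was altered, so these transcripts do not check the labels.

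The name of stem-like cells was only partly borne out by markers outside the rule. After thinning each cell to 10000 UMIs, Mllt3, a stem cell maintenance factor, was seen in 45.5% to 56.3% of Mecom+Hlf+ cells and in 4.86% to 8.75% of granulocytic cells (at least 10 UMIs of Ltf). The receptor gene Adgrl4 was seen in 83.4% to 87.8%, against 11.3% to 19.2% of granulocytic cells. Ly6a, which encodes Sca-1, was seen in only 5.0% to 13.8% and Procr, which encodes the stem cell receptor CD201, in 2.04% to 6.5%. Granulocytic cells showed these transcripts in at most 0.387% and 0.209%. Flt3-positive cells, with at least 2 UMIs of Flt3 and none of Mecom or Hlf, are a nearby progenitor type and numbered 735. They showed Mllt3 in 19.2% to 30.4%, Adgrl4 in 55.4% to 71.1%, Procr in 0.741% to 2.23% and Ly6a in 0.694% to 5.80%, and in control Ly6a was no more frequent in Mecom+Hlf+ cells (5.0%) than in them (5.80%). These markers were thus not confined to Mecom+Hlf+ cells. Without thinning, Ly6a was seen in 13.7% to 21.1% and Procr in 3.92% to 9.77% of Mecom+Hlf+ cells. The median depth of the granulocytic cells was 11950 to 17709.5 UMIs, and 3 to 46 Mecom+Hlf+ cells a library were too shallow to be thinned. Shares of cells with a Procr or Ly6a UMI were thus low, and the name by rule is kept here.

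Genes that stood highest over the other cells in every library, the rule genes aside, included Plxdc2, Samd12, Trpc6, Prkg1 and Mycn, followed by Pf4, Chsy3, Esam, Csgalnact1, Med12l, Cavin2, Gucy1a1, Mmrn1 and Rab27b. Pf4, the platelet chemokine, was at 335, 482, 463 and 731 CPM, against 31.0 to 67.5 CPM in the other cells. Esam, an adhesion molecule of stem cells and endothelium, was at 14.7 CPM in control and 28.1 CPM in Mll3/4SI, against 0.921 and 1.46 CPM in their other cells. Plxdc2 was at 81.2 to 128 CPM against 3.11 to 6.60 CPM. Both stem cell and megakaryocyte genes therefore stood out in the selected cells. These contrasts follow from the selection and are given without a test.

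Median Mecom was 5 UMIs a cell in each library. Cells just inside the limit, with exactly 2 Mecom UMIs, numbered 38, 67, 39 and 17 and held Mllt3 at 44.2 to 63.6 CPM. Cells just outside, with 1 Mecom UMI, numbered 89, 116, 45 and 25 and held Mllt3 at 43.1 to 51.1 CPM. Cells that met the Mecom and Hlf limits but held Flt3, whatever their Dntt, numbered 268, 237, 144 and 118. They held Adgrl4 at 774 to 1019, Pf4 at 6.68 to 41.2, Ly6a at 17.5 to 26.9 and Procr at 1.94 to 9.29 CPM. In the cells with exactly 2 Mecom UMIs these genes were at 216 to 333, 301 to 1298, 1.83 to 3.51 and 0 to 3.35 CPM. The Flt3 condition thus kept out cells poor in Pf4 that held more Adgrl4, Ly6a and Procr than the cells with exactly 2 Mecom UMIs in each library. The cells kept out held any Mecom count of 2 or more, so they were set beside only the lowest edge of the selection. That order is not a statement about all Mecom+Hlf+ cells.

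Mecom+Hlf+ cells made up 215 of 7152 kept control cells (3.01%, Clopper-Pearson interval 2.62% to 3.43%) and 354 of 8617 Mll3SI cells (4.11%, 3.70% to 4.55%). Mll4SI held 153 among 11187 (1.37%, 1.16% to 1.60%), and Mll3/4SI 90 among 7166 (1.26%, 1.01% to 1.54%). The Mll3SI share was 1.37 times that of control (1.15 to 1.62). For Mll4SI the ratio was 0.455 (0.369 to 0.560), and for Mll3/4SI it was 0.418 (0.324 to 0.535). Mll3/4SI to Mll4SI was 0.918 times, with an interval of 0.703 to 1.19 that spans 1. The 4 libraries fell into a higher pair and a lower pair.

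The ratio for Mll4SI depended on the other cells in the library. Cells with over 2% of their UMIs in 11 late granule genes were 55.9%, 53.5%, 76.9% and 57.9% of kept cells. Among the remaining cells, the shares of Mecom+Hlf+ cells were 6.22%, 7.84%, 4.68% and 2.92%, so Mll4SI stood at 0.752 times control (0.600 to 0.941) and Mll3/4SI at 0.623 times Mll4SI (0.472 to 0.821). Within cells thinned to 10000 UMIs the shares were 1.89%, 2.73%, 1.28% and 0.797%, and these ratios were 0.674 (0.514 to 0.882) and 0.624 (0.441 to 0.876). The interval of Mll3/4SI to Mll4SI, which spans 1 among all kept cells, thus left out 1 in both of these versions. Thinning left out 653, 1450, 3509 and 513 shallower cells. By hashtag, Hashtag1 and Hashtag2 cells differed. Hashtag1 cells had shares of 3.48%, 3.73%, 1.19% and 1.54%, and Hashtag2 cells 2.23%, 4.23%, 1.36% and 0.976%. The Mll3SI share was 1.89 times control (1.45 to 2.5) among Hashtag2 cells and 1.07 times (0.838 to 1.37) among Hashtag1 cells.

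**Figure D1:**
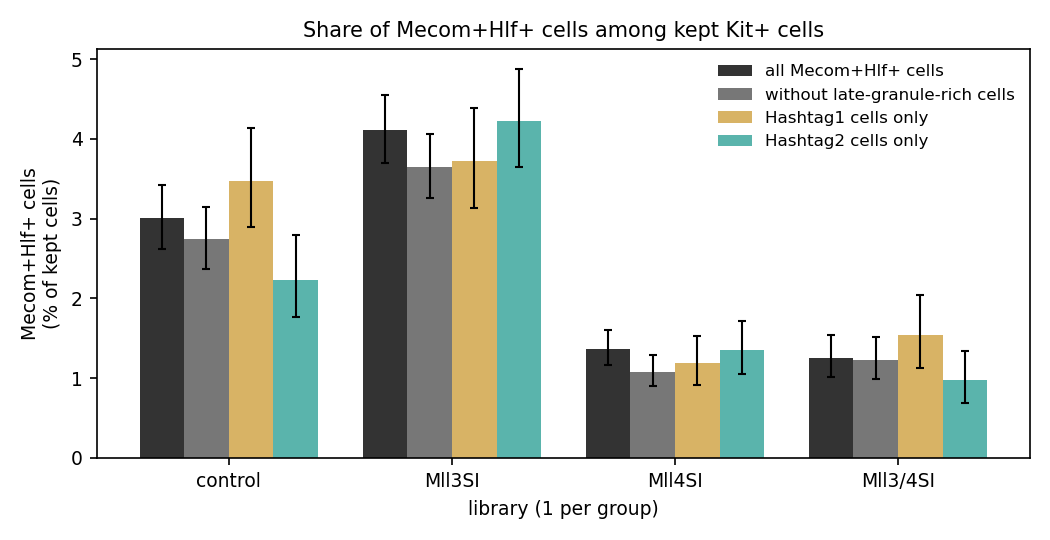
Share of Mecom+Hlf+ cells among kept cells (%, y axis) in each library (x axis), for all cells, without late-granule-rich Mecom+Hlf+ cells and by hashtag. The version without late-granule-rich Mecom+Hlf+ cells is still a share of all kept cells. Bars start at 0 and lines are Clopper-Pearson 95% intervals; in each of the 4 versions control and Mll3SI stand above Mll4SI and Mll3/4SI.

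Some Mecom+Hlf+ cells also held large amounts of late granule transcripts, such as Ltf and Camp of maturing neutrophils. Cells with over 2% of UMIs in the 11 genes numbered 19, 40, 32 and 2, or 8.84%, 11.3%, 20.9% and 2.22% of Mecom+Hlf+ cells. Only 0, 6, 2 and 0 cells lay between 1% and 5%, so the limit of 2% separated cells that stood well apart. Their median depths were 33428, 28405.5, 39327 and 29965.5 UMIs against 20768, 17183, 19601 and 24194.5 in the rest. Of these cells 8, 25, 25 and 1 were above both hashtag thresholds, against 11, 14, 1 and 6 of the rest. Scrublet's top-scoring set held 17, 34, 24 and 2 of them. Whether they are droplets of 2 cells was not tested further, and results that rest on them are given with and without them.

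The surface antibodies, which the rule did not use, divided the Mecom+Hlf+ cells into distinct groups. CD150 and CD48 counts each had separate low and high modes over the 812 cells, and limits at the lowest point between them (17 UMIs for CD150, 169 for CD48) gave 3 large groups. CD150-high CD48-low cells, the CD150 and CD48 phenotype of long-term stem cells, numbered 38 of 215 in control (17.7%, 12.8% to 23.4%) and 88 of 354 in Mll3SI (24.9%, 20.4% to 29.7%). Only 3 of the 153 Mll4SI cells (1.96%, 0.406% to 5.62%) and 13 of the 90 Mll3/4SI cells (14.4%, 7.92% to 23.4%) fell in this field. Mll4SI thus had the lowest percentage, and the intervals of Mll3/4SI and control overlapped widely.

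Counted against all kept cells, CD150-high CD48-low Mecom+Hlf+ cells were 0.531%, 1.02%, 0.0268% and 0.181%, libraries in the same order. The ratio to control was 1.92 for Mll3SI (1.31 to 2.87). For Mll4SI it was 0.0505 (0.0102 to 0.158), and for Mll3/4SI 0.341 (0.170 to 0.649). Mll3/4SI held 6.76 times the share of Mll4SI (1.91 to 34.8), against 0.918 times for all Mecom+Hlf+ cells. By hashtag, they were 24.8% of Hashtag1 and 9.33% of Hashtag2 cells in control, and 22.8% and 31.8% in Mll3SI. In Mll4SI they were 0% (0 cells) and 4.48% (3 cells), and in Mll3/4SI 13.04% and 16.2%. Mll4SI was thus the lowest library within both hashtags, nearer to control in Hashtag2, while Mll3/4SI was below control in Hashtag1 and above it in Hashtag2. Doubling the CD48 limit gave 21.4%, 28.5%, 2.61% and 23.3% of Mecom+Hlf+ cells, and halving it gave 13.95%, 20.3%, 0.654% and 6.67%. None of these cells was late-granule-rich except 1 in Mll3SI.

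**Figure D2:**
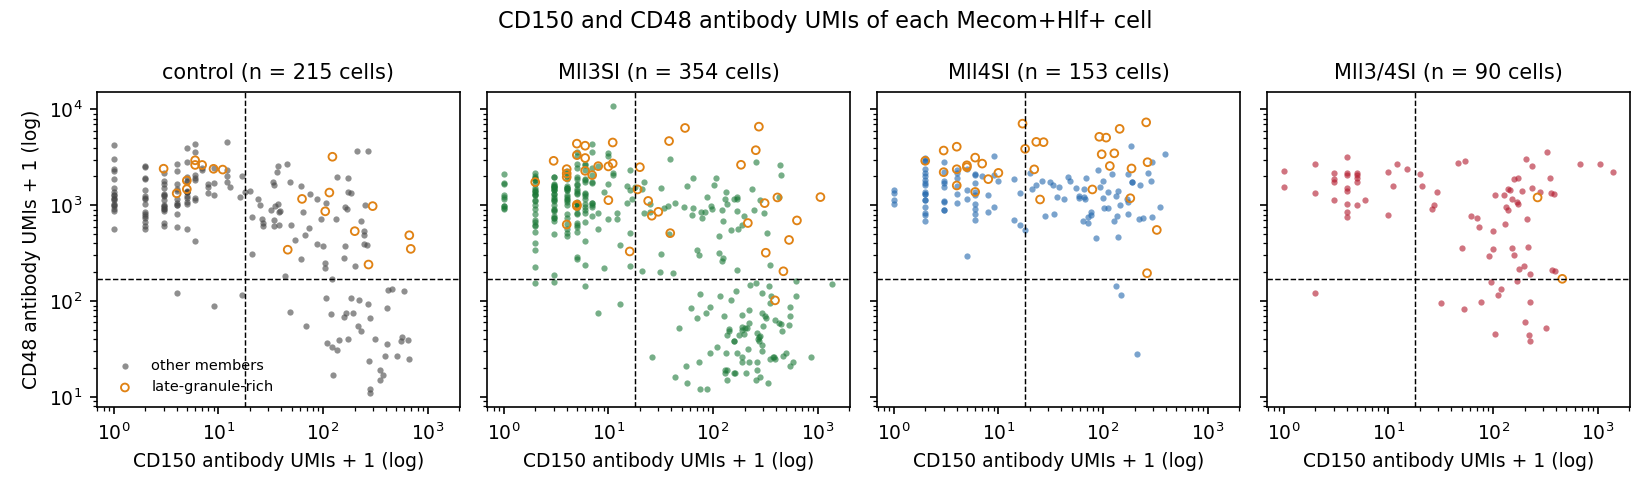
CD150 (x axis) and CD48 (y axis) antibody UMIs plus 1, both on log axes, for each Mecom+Hlf+ cell, 1 panel a library. Dashed lines are the limits of 17 and 169 UMIs and open circles are late-granule-rich cells; the lower right field holds 38, 88, 3 and 13 cells.

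CD150-high CD48-high cells numbered 66, 77, 73 and 49, or 30.7%, 21.8%, 47.7% and 54.4%. CD150-low CD48-high cells numbered 108, 184, 77 and 27, or 50.2%, 52.0%, 50.3% and 30.0%. Against kept cells the first group stood at 0.968 (0.692 to 1.36), 0.707 (0.503 to 0.996) and 0.741 (0.505 to 1.08) times control in Mll3SI, Mll4SI and Mll3/4SI. The second group stood at 1.41 (1.11 to 1.80), 0.456 (0.338 to 0.613) and 0.250 (0.158 to 0.382) times. The lower shares in Mll4SI and Mll3/4SI therefore did not fall evenly on the groups. In Mll4SI the CD150-high CD48-high group was nearest to control, and in Mll3/4SI the CD150-low CD48-high group was farthest below it. These ratios depend on the late-granule-rich cells, which when left out of both counts leave 3151, 4007, 2586 and 3018 kept cells. Of those, CD150-high CD48-high cells numbered 56, 58, 56 and 47, so their Mll4SI share was then not below control. CD150-low CD48-high cells numbered 99, 164, 62 and 27, and CD150-high CD48-low cells 38, 87, 3 and 13.

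The groups also differed in transcripts that neither the rule nor the antibodies used. Transcript values by CD150 and CD48 group leave out late-granule-rich cells throughout. Procr was at 37.7 CPM in CD150-high CD48-low control cells, against 4.14 CPM in CD150-high CD48-high and 2.44 CPM in CD150-low CD48-high cells. In Mll3SI the same levels were 27.3, 0 and 2.43 CPM. At least 1 Procr UMI was found in 14 of the 38 control cells and in 18 of the 87 Mll3SI cells that were not late-granule-rich. The median depths of the group were 19063 and 13699 UMIs. In granulocytic cells, without thinning, the shares were 0.0780% and 0.303%. Of the Procr UMIs, 27 in control and 35 in Mll3SI lay in CD150-high CD48-low cells, with 5 and 0 in CD150-high CD48-high and 6 and 8 in CD150-low CD48-high cells. In Mll4SI the same 3 groups held 1, 1 and 4 Procr UMIs, and in Mll3/4SI 5, 7 and 0, where the 5 came from 1 cell. Most Procr transcripts thus lay in the first group in control and Mll3SI, but not in Mll4SI or Mll3/4SI.

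Mllt3 was at 349, 99.5 and 52.9 CPM over the 3 groups of control, in the order just given. Prdm16, a stem cell transcription factor, was at 68.5, 12.4 and 2.44 CPM. Vwf, the platelet adhesion protein of megakaryocyte-biased stem cells, was at 117, 34.8 and 2.04 CPM and Pf4 at 1169, 639 and 4.48 CPM. These genes were thus highest in CD150-high CD48-low cells, and Pf4 was also well represented in CD150-high CD48-high cells. In Mll3/4SI, Vwf in CD150-high CD48-low cells was 10.0 CPM, from 2 UMIs in 13 cells.

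Granulocyte-monocyte genes had the opposite order. Mpo, the myeloperoxidase of primary granules, was at 39.1 CPM in CD150-high CD48-low control cells and 2736 CPM in CD150-low CD48-high cells, and the 4 libraries lay between 2554 and 2736 CPM in the latter. Elane, neutrophil elastase, was at 36.3 against 2714 CPM, and Cebpa, the factor that starts the granulocyte-monocyte programme, at 0 against 132 CPM. Cd48 RNA followed the antibody, at 4.19 against 222 CPM. In Mll4SI the CD150-high CD48-high cells held Cd48 RNA at 302 CPM, against 148 CPM in control. Cpa3, a protease of mast cells and basophils, was at 1.40 against 392 CPM. CD150-low CD48-high cells thus met the Mecom and Hlf limits while carrying early granulocyte-monocyte and mast cell transcripts.

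**Figure D3:**
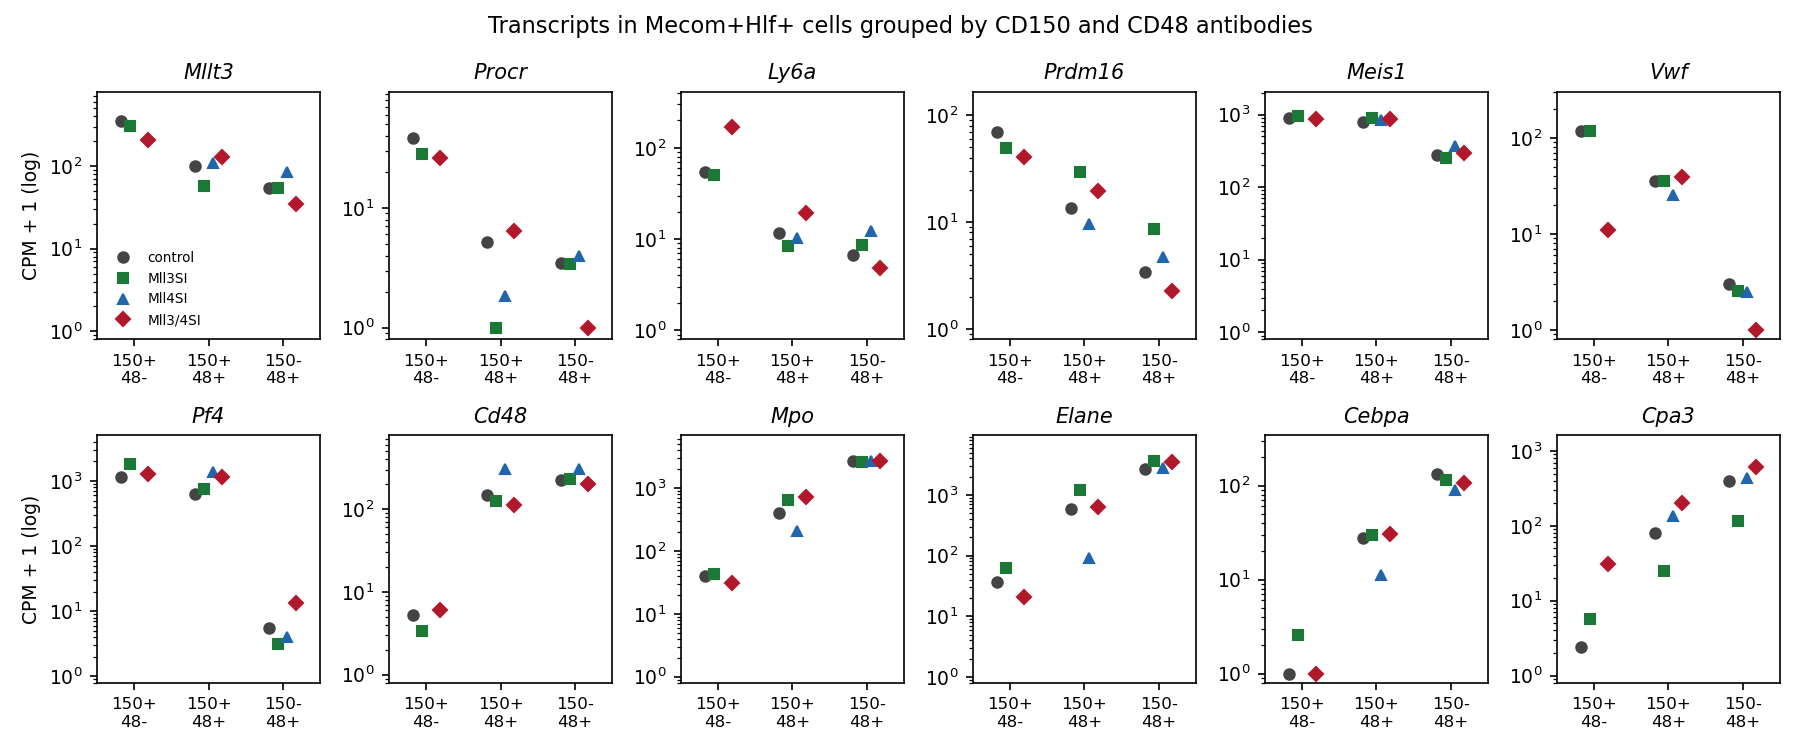
Level of 12 transcripts (CPM plus 1, log axis) in Mecom+Hlf+ cells grouped by CD150 and CD48 antibodies (x axis, + high and - low), 1 point a library from summed UMIs without late-granule-rich cells. Mll4SI has no point in the first group, which held 3 cells; Mllt3, Procr and Prdm16 are highest there, and Mpo, Elane and Cebpa are highest in CD150-low CD48-high cells.

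The Sca1 antibody followed the same division for some transcripts and not for others. Cells were ranked within each library by the centred log-ratio of Sca1, and the 71, 118, 51 and 30 highest were set beside as many of the lowest. Ly6a, its own gene, was at 50.01, 57.6, 29.1 and 83.8 CPM in the highest and at most 1.81 CPM in the lowest. Procr was at 29.5, 25.3, 4.16 and 14.2 CPM in the highest and at most 0.994 CPM in the lowest. Mpo was at 252, 446, 403 and 921 CPM in the highest, against 1791 to 2760 CPM in the lowest. Pf4 had no common direction, at 285, 205, 256 and 98.0 CPM in the highest against 120, 433, 386 and 1021 CPM in the lowest. Vwf was at 44.3 against 11.3 CPM in control but at 11.4 against 34.8 CPM in Mll3/4SI. Late-granule-rich cells are included in these values and numbered 3, 5, 3 and 0 among the highest and 13, 30, 26 and 2 among the lowest. Ranked without them, Mpo was at 116, 265, 429 and 931 CPM in the highest. Pf4 was then at 284, 238, 55.7 and 99.4 CPM in the highest against 169, 556, 768 and 1070 CPM in the lowest. Sca1-high cells thus held most Ly6a and Procr transcripts, with the least Procr in Mll4SI.

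Over all Mecom+Hlf+ cells, median CD117 (Kit) was 344, 337.5, 330 and 373.5 UMIs. Median CD150 was 15, 11 and 17 UMIs in control, Mll3SI and Mll4SI and 98.5 in Mll3/4SI. As a centred log-ratio over the 13 antibodies in each cell, the median CD150 of Mll3/4SI was 2.39 above control on the log2 scale, 2.48 without late-granule-rich cells, and 1.11 and 3.37 within Hashtag1 and Hashtag2. As a share of all UMIs of the 13 antibodies the CD150 difference was smaller, at 0.47, 0.30 without late-granule-rich cells, and -0.0059 and 0.51 by hashtag. The CD150 medians of control, Mll3SI and Mll4SI lay at or below the limit of 17 UMIs between the low and high modes, and that of Mll3/4SI lay above it. Such a median moves with the share of CD150-high cells and does not give the level of a typical cell. In the 71, 118, 51 and 30 cells ranked highest by CD150 centred log-ratio, medians were 202, 220, 133 and 225 UMIs. The summed share in Mll3/4SI did not pass 2-fold. Median CD48 was 1004, 900.5, 1488 and 1148 UMIs, highest in Mll4SI.

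Median CD41, an integrin of megakaryocytes and early progenitors, was 39, 23, 62 and 84 UMIs. Median Sca1 was 18, 26.5, 14 and 30.5 UMIs, and its upper quartile was 54.5, 58.0, 24.0 and 77.0 UMIs, lowest in Mll4SI. As a share of the 13 antibodies' UMIs, Sca1 in Mll4SI differed from control by -1.88 on the log2 scale, and by -1.41 without late-granule-rich cells. As a median centred log-ratio the Sca1 difference was smaller, at -0.63 and -0.46. CD201 was low everywhere, with medians of 2 to 5 UMIs. Of the 13 antibodies 1, 3 and 3 passed a 2-fold difference in share in Mll3SI, Mll4SI and Mll3/4SI against control, and 6 in Mll3/4SI against Mll4SI. Without late-granule-rich cells these counts were 2, 2, 1 and 2, and CD150 in Mll4SI went from -1.07 to -0.62. The antibody past 2-fold in Mll3SI was CD127, at 2.15 in share, and 0.68 and 3.51 by hashtag. Its medians were 4 UMIs in control and 7 in Mll3SI, and its centred log-ratio difference was 0.55.

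Against the other cells of their library, Mecom+Hlf+ cells had higher CD41 and CD150 and far lower CD11b in each library. Median centred log-ratios of CD41 were -0.52 to 1.24 against -3.03 to -1.53, and those of CD11b were -1.24 to -0.84 against 2.89 to 3.96. Flt3-positive cells had CD150 medians of -3.37 to -2.72, below the -1.66 to 1.44 of Mecom+Hlf+ cells, and CD34 medians of 1.43 to 1.93, above their -0.06 to 0.52. CD48 was also higher in Flt3-positive cells, at 5.89 to 6.33 against 4.78 to 5.55. A gate on Kit was used for the sort, so CD117 is not read as a difference.

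For transcripts, UMIs were summed over the Mecom+Hlf+ cells of a library and compared as a log2 ratio of CPM plus 1. A gene is called here when this ratio reached 1 in size and the counting interval left out no difference. Such a sum alone does not tell fewer cells with a transcript from less transcript per cell, and counts of cells are given for some genes only. Of 8784 genes with a mean of at least 10 CPM, Mll3SI against control had 9 higher (0.102%) and 23 lower (0.262%). Mll4SI had 72 higher (0.82%) and 55 lower (0.626%), and Mll3/4SI had 78 higher (0.888%) and 90 lower (1.02%). Mll3/4SI against Mll4SI had 75 higher (0.854%) and 154 lower (1.75%). The median ratio of all genes stayed within 0.04 of 0. Without late-granule-rich cells the counts were 13 and 25, 41 and 71, 84 and 46, and 84 and 38. Both versions shared 7 higher and 22 lower genes in Mll3SI, 29 and 42 in Mll4SI, 66 and 43 in Mll3/4SI, and 51 and 28 in Mll3/4SI against Mll4SI.

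Gene lists were read over genes of at least 1 CPM. Of 12821 such genes, 0.46% were called higher and 0.624% lower in Mll3SI, 1.96% and 2.05% in Mll4SI, 2.55% and 1.81% in Mll3/4SI, and 2.49% and 2.53% in Mll3/4SI against Mll4SI. The 3 comparisons with control share that library, so their values are given side by side and not set against each other.

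**Figure D4:**
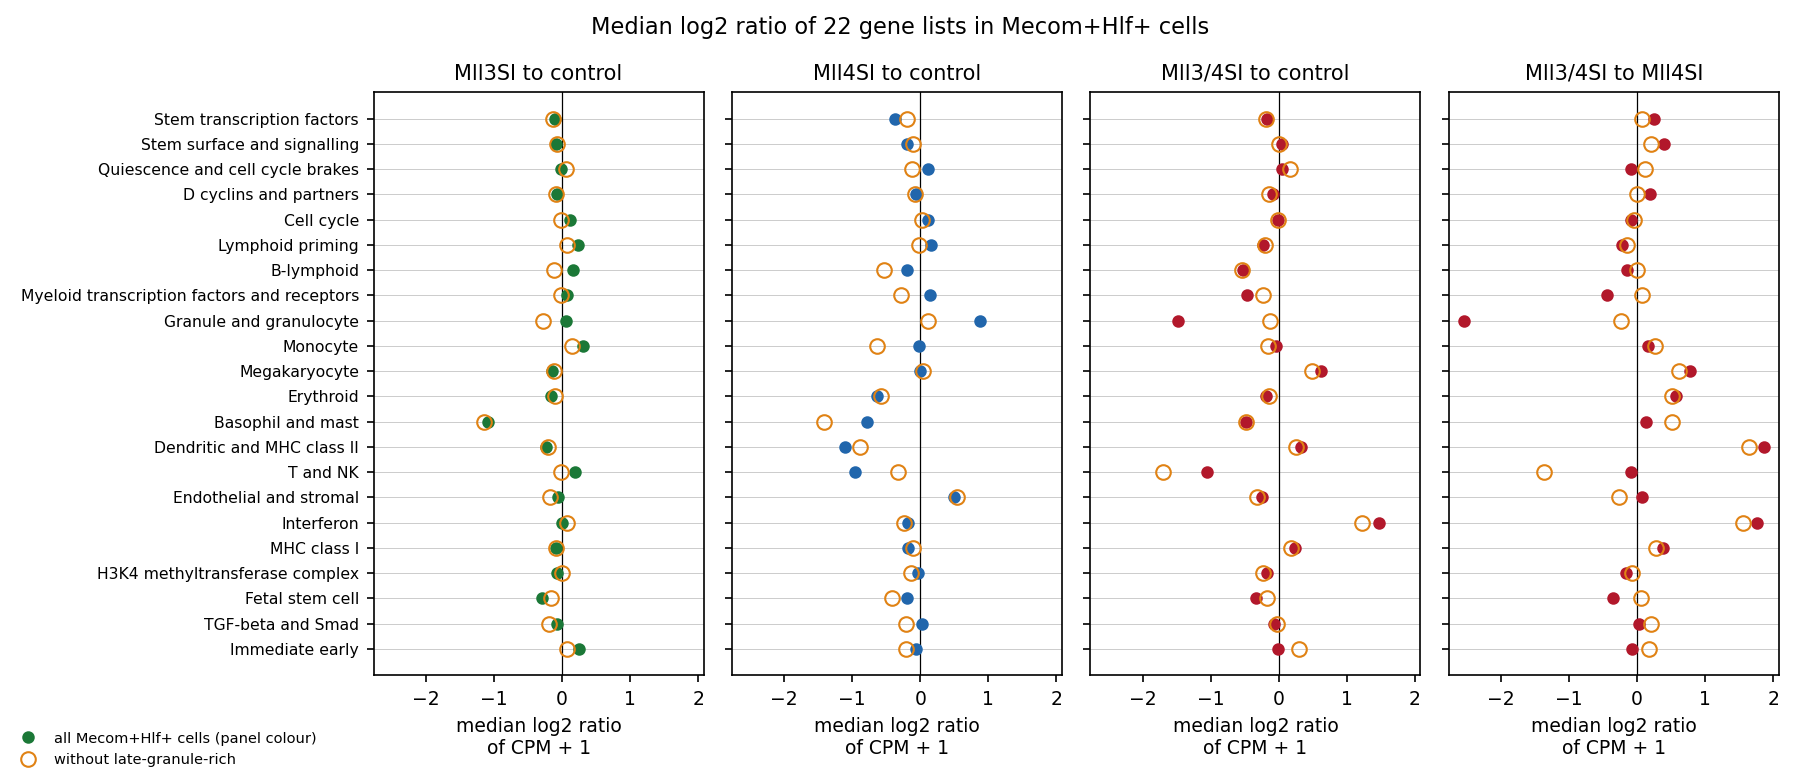
Median log2 ratio of CPM plus 1 (x axis) of 22 gene lists (y axis) in Mecom+Hlf+ cells, 1 panel a comparison. Filled points are all cells and open circles leave out late-granule-rich cells; the interferon list is at 1.47 and 1.22 in Mll3/4SI to control, and the granule list moves from -1.48 to -0.13.

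Of 21 stem cell transcription factor genes none was called in Mll3SI, and their median ratio was -0.10. In Mll4SI 3 were called lower and none higher, with 4 of 21 above 0 and a median of -0.37, or -0.19 without late-granule-rich cells. Prdm16 was at 15.7, 19.4, 5.60 and 13.8 CPM, a ratio of -1.34 in Mll4SI (-2.24 to -0.79). Hoxa10, a homeobox factor of stem and progenitor cells, was at 12.6, 9.40, 5.09 and 7.13 CPM, a ratio of -1.16 in Mll4SI (-2.11 to -0.56) and -0.96 without late-granule-rich cells. Tcf15, a factor of quiescent stem cells, was at 9.05, 7.40, 2.55 and 6.29 CPM, a ratio of -1.50 in Mll4SI (-2.98 to -0.82). Mll4SI was the lowest library for all 3. Of the 3 large antibody groups of control, CD150-high CD48-low cells held each of these genes at its highest level. Mll4SI had 3 such cells. Within CD150-high CD48-high cells Prdm16, Hoxa10 and Tcf15 were at 8.49, 11.9 and 5.94 CPM in Mll4SI, against 12.4, 22.4 and 9.12 CPM in control. In CD150-low CD48-high cells Hoxa10 was lower in Mll4SI (2.25 against 4.89 CPM) and Prdm16 higher (3.75 against 2.44 CPM). Tcf15 there rested on 2 UMIs in each of these libraries. Whether group sizes account for the lower levels was not tested. Within Hashtag2 cells the Mll4SI ratios were -0.50, -0.07 and -0.83. In Mll3/4SI only Hoxb4 was called lower (16.7 to 7.55 CPM, -1.05, -1.97 to -0.40), which was at -0.85 where 1 Mecom UMI was enough for selection, and the median was -0.17.

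Of 20 stem cell surface and signalling genes none was called in Mll3SI or Mll3/4SI, with medians of -0.09 and 0.04. In Mll4SI Procr was at 1.53 CPM (6 UMIs) against 7.67 CPM in control (39 UMIs), a ratio of -1.78 (-3.86 to -1.08), and -2.09 and -0.58 by hashtag. Fgd5, a stem cell marker gene, was at 1.27 CPM (5 UMIs) against 4.52 CPM (23 UMIs), a ratio of -1.28 (-3.58 to -0.40), and -0.85 without late-granule-rich cells. Mll3/4SI against Mll4SI had 3 higher, Procr at 1.25 (0.19 to 3.42), Ly6a at 1.54 (1.01 to 2.32) and Esam at 1.17 (0.67 to 1.80). Within Hashtag1 cells the Procr and Ly6a ratios were 0.19 and 0.33, and without late-granule-rich cells those of Procr and Esam were 0.88 and 0.74.

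Interferon-response genes were higher in the Mecom+Hlf+ cells of Mll3/4SI than in those of control or Mll4SI. As background, interferons act through factors that bind response elements of the GAAANNGAA type before the start of their target genes, and lasting interferon exposure is known to disturb stem cell quiescence. Of 19 such genes 13 were called higher and none lower in Mll3/4SI against control, all 19 ratios were above 0, and their median was 1.47. Within Hashtag1 and Hashtag2 cells the medians were 1.23 and 1.95, and without late-granule-rich cells 1.22. Against Mll4SI, of the same sex by transcripts, 13 were higher and the median was 1.76. In Mll3SI and Mll4SI the medians were 0.00 and -0.18 and only Usp18 was called, lower in both but past the fold in neither without cells above both hashtag thresholds (-0.91 and -0.86). Usp18, the protease that removes ISG15, was at 9.05, 3.56, 3.31 and 19.3 CPM.

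The promoters of Isg15 and Ifit1 show what such a response element looks like in genes that turned out high, and that of Irf7 one without it. Each is the 250 bases before the annotated start from RefSeq on GRCm38.p6, printed 5′ to 3′ along the gene's strand, with matches to GAAANNGAA on either strand in capitals. Overlapping matches form 1 run of capitals. Isg15 is shown from chr4:156200819-156201068 (minus strand), Ifit1 from chr19:34640639-34640888 (plus strand) and Irf7 from chr7:141266425-141266674 (minus strand).
Isg15: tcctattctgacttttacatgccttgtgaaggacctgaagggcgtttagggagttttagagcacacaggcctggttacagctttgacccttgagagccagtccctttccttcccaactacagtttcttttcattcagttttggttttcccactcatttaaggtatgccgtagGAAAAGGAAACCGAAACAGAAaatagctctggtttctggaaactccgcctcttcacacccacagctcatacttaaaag
Ifit1: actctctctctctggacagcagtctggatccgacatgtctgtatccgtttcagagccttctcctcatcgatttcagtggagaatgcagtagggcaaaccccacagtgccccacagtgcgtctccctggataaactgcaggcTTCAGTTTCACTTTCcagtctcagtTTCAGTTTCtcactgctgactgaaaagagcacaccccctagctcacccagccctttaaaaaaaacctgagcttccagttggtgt
Irf7: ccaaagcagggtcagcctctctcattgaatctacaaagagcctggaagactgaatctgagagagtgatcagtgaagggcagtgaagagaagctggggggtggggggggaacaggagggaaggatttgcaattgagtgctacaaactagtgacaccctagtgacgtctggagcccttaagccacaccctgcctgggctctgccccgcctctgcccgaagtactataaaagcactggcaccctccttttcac
Isg15 and Ifit1 each hold 3 matches and Irf7 none. Of the 19 genes 14 matched the RefSeq table, with 17 promoters, and 6 of 17 promoters held a match (35.3%), in 6 of 14 genes (42.9%). Of all 32851 promoters of this length 7.13% held one. A match is a stretch of letters and not a measured binding site, and its absence in this window says nothing of a factor.

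Ifi27l2a, an interferon-induced mitochondrial membrane protein gene, was at 3.15, 5.70, 2.55 and 42.3 CPM, a ratio of 3.39 in Mll3/4SI (2.98 to 4.61). Isg15, a ubiquitin-like modifier, was at 3.15, 5.70, 4.84 and 32.3 CPM, a ratio of 3.0 (2.57 to 4.24). Irf7, the factor that amplifies interferon production, was at 0.787, 1.71, 1.53 and 15.1 CPM, a ratio of 3.17 (2.78 to 6.21). In each of these genes Mll3/4SI alone stood high. Ifit1, which binds foreign RNA, was at 2.16, 0.854, 2.55 and 17.2 CPM, a ratio of 2.52 (2.0 to 4.10). The cell richest in Isg15 held 14.3% of the Mll3/4SI UMIs, so no single cell carried that difference.

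The higher level was present in both large groups of Mll3/4SI cells. Isg15 was at 30.9 CPM in CD150-high CD48-high and 25.2 CPM in CD150-low CD48-high cells, against 3.32 and 2.85 CPM in control. In the 13 CD150-high CD48-low cells Isg15 was at 80.0 CPM (16 UMIs), against 6.98 CPM in control. Ifi27l2a in the same 13 cells was at 10.0 CPM from 2 UMIs. The other cells of the library shared it, with Isg15 at 3.51, 4.03, 3.302 and 28.6 CPM. Among genes named for their large ratios, the interferon-inducible GTPase Iigp1 was at 11.01, 6.98, 5.85 and 53.7 CPM (2.19, 1.82 to 2.76). In the other cells it was at 0.794, 0.679, 0.613 and 8.68 CPM, so its level in Mecom+Hlf+ cells was the higher one in each library. MHC class I genes had 9 of 10 ratios above 0 in Mll3/4SI, with a median of 0.24 and none called.

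**Figure D5:**
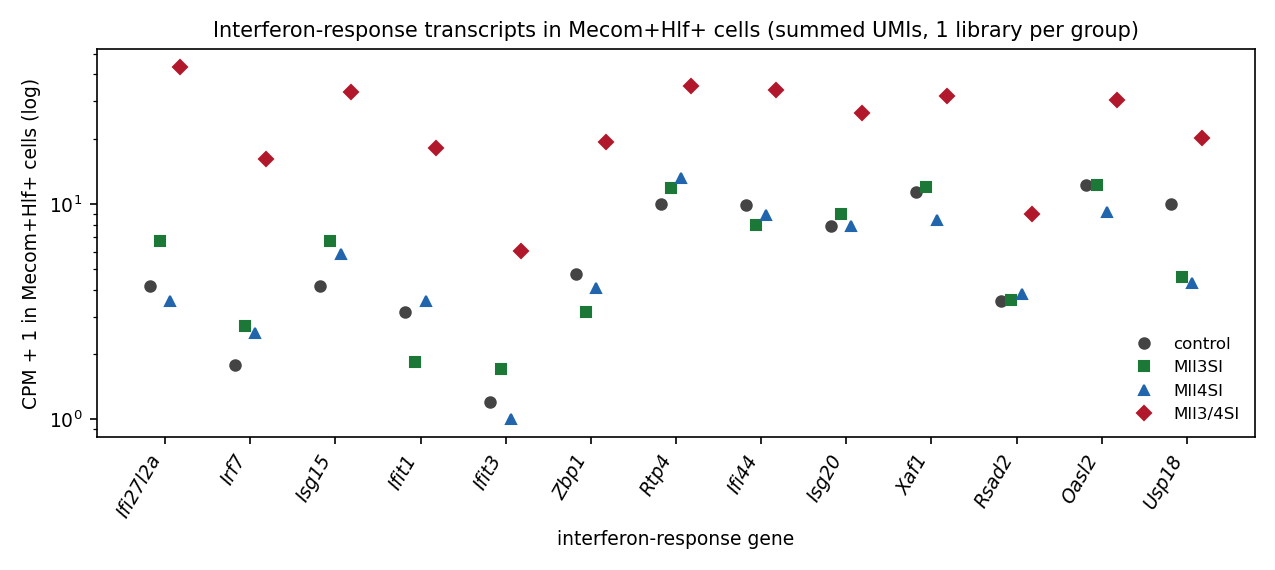
Level of the 13 interferon-response transcripts called higher in Mll3/4SI (CPM plus 1, log axis) in the summed Mecom+Hlf+ cells of each library (1 point each), ordered by the ratio of Mll3/4SI to control. These genes are drawn because Mll3/4SI is high in them; Isg15 is at 32.3 CPM against 3.15 to 5.70 in the other libraries.

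Of 14 megakaryocyte genes 11 were measured, and 3 of them were called higher and none lower in Mll3/4SI against control, with 10 of 11 above 0 and a median of 0.62. Plek, the platelet protein pleckstrin, was at 76.7, 69.3, 106 and 196 CPM, a ratio of 1.34 (1.16 to 1.55), and 1.15 and 1.37 within Hashtag1 and Hashtag2. Pf4 had a ratio of 1.13 (1.03 to 1.22), but 1.39 within Hashtag1 and -1.44 within Hashtag2. Gp1bb, a subunit of the platelet von Willebrand receptor, had 1.40 (0.75 to 2.48), and 1.89 and -0.19 by hashtag. The higher Plek level thus held within both hashtags, and those of Pf4 and Gp1bb did not. In Mll4SI Vwf was called lower, at 28.5, 30.9, 10.4 and 21.8 CPM over the libraries (-1.37, -1.99 to -0.94), with -2.10 and -0.18 by hashtag. Where 1 Mecom UMI was enough for selection, Vwf was at -0.78 and not called.

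Of 16 erythroid genes 10 were measured and 4 were called lower in Mll4SI, where no ratio was above 0 and the median was -0.63. Aqp1, a water channel of red cells, was at 10.0, 9.54, 1.27 and 9.22 CPM (-2.28, -4.66 to -1.66), and Klf1, the erythroid master factor, at 4.72, 3.70, 0.509 and 4.61 CPM (-1.92, -6.34 to -1.20). The Mll4SI values rest on 5 and 2 UMIs. Epor had -1.47 (-3.79 to -0.66), with 0.29 within Hashtag2. Car1 had -3.11 (-4.46 to -2.64), but 72.3% of its control UMIs came from 1 cell. Car2, a carbonic anhydrase of stem cells and red cells, followed another order, at 302, 275, 186 and 92.6 CPM, with -1.69 in Mll3/4SI (-1.91 to -1.50) and -1.73 and -1.49 by hashtag.

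Mast cell and basophil genes were lower in Mll3SI, where 6 of 8 measured genes were called lower and the median was -1.08. Cpa3 was at 221, 69.8, 299 and 316 CPM, a ratio of -1.65 in Mll3SI (-1.82 to -1.51), and -1.28 and -2.29 by hashtag. It was lowest in Mll3SI in each of the 3 CD150 and CD48 groups except CD150-high CD48-low cells, where it was at 1.40 CPM in control and 4.68 in Mll3SI. Fcer1a, a chain of the IgE receptor, was at 10.2, 4.41, 48.1 and 78.0 CPM, with a ratio of -1.05 in Mll3SI (-1.90 to -0.54). Its ratio was 2.13 in Mll4SI (1.78 to 2.71), and that of Mll3/4SI was 2.81 (2.48 to 3.40). Fcer1a was the only gene of this list called higher in either group. Of the 8 measured genes 3 were called lower in each, and the medians were -0.78 in Mll4SI and -0.48 in Mll3/4SI. Il1rl1, the interleukin-33 receptor, and Ms4a2, another IgE receptor chain, had -1.11 and -1.03 in Mll3SI. Where 1 Mecom UMI was enough for selection, Fcer1a, Il1rl1 and Ms4a2 had -0.85, -0.99 and -0.73 in Mll3SI and were below the fold. Cpa3 was past the fold under every alternative run. Prss34 was also called lower in Mll3SI, but 99.5% of its control UMIs came from 1 cell. The last Mll3SI call of this list is not described here. Mcpt8, a basophil protease, was called lower in Mll4SI (-2.30) and not in Mll3SI, with 59.9% of its control UMIs in 1 cell.

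MHC class II genes were few, and 3 of 4 measured genes were called lower in Mll4SI. Their invariant chain Cd74 was at 7.08, 5.98, 1.02 and 6.29 CPM (-2.0, -4.75 to -1.32), H2-Aa at 10.2, 11.8, 4.33 and 18.4 CPM (-1.08) and H2-Eb1 at 8.46, 6.98, 3.31 and 21.4 CPM (-1.13). The last 2 had -0.85 and -0.93 without late-granule-rich cells. H2-Eb1 was called higher in Mll3/4SI (1.24, 0.72 to 1.96), with -2.02 and 2.11 by hashtag, so its direction differed between the hashtags. Flt3-positive cells summed to 256 to 1862 CPM over the 8 listed dendritic and MHC class II genes, against 34.1 to 72.1 CPM in Mecom+Hlf+ cells.

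Granule and granulocyte genes had a median ratio of 0.06 in Mll3SI, 0.88 in Mll4SI and -1.48 in the combined group, with 8 called higher in Mll4SI and 11 called lower in Mll3/4SI. Without late-granule-rich cells these medians were -0.27, 0.11 and -0.13. The calls therefore moved with the number of late-granule-rich cells. Of 16 myeloid factor and receptor genes Cebpb, a factor of emergency granulocyte formation, was called lower in Mll3/4SI at 113, 126, 69.2 and 54.1 CPM over the libraries (-1.06, -1.36 to -0.79), and was at -0.83 without those cells. Among 7 monocyte genes Cx3cr1, the fractalkine receptor, was lower in Mll4SI (-2.05, -4.14 to -1.40) and Mll3/4SI (-1.26, -2.78 to -0.40), at 9.44, 5.70, 1.53 and 3.35 CPM. Both groups also had 1 monocyte gene called higher, and the list medians were -0.022 and -0.043. The list as a set thus did not move one way in Mll4SI or Mll3/4SI.

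B-lymphoid transcripts were close to absent, at 20.6, 26.2, 19.1 and 18.9 CPM over 15 genes, with 6, 3, 10 and 11 of them at 0. The other cells held 77.7 to 324 CPM of the same genes. The calls among 12 TGF-beta and Smad genes were 1 lower and 1 higher in Mll4SI and 1 lower in Mll3/4SI. Over all genes 2.05% were lower and 1.96% higher in Mll4SI, and 1.81% lower in Mll3/4SI. Calls of 1 gene are too few to set against these shares. Lymphoid priming genes had median ratios of 0.23, 0.16 and -0.23, and endothelial and stromal genes summed to 20.1 to 29.5 CPM. Nkg7, listed with T and NK genes but also present in granule-bearing progenitors, was at 308, 316, 233 and 95.2 CPM (-1.68 in Mll3/4SI, -1.90 to -1.49), and -2.21 and -1.32 by hashtag. It was also lowest in Mll3/4SI in the other cells, at 270, 318, 159 and 101 CPM.

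Cell cycle genes did not pass the fold in any comparison. Over the 17 listed, which mark DNA synthesis and mitosis, the median ratios to control were 0.12, 0.11 and -0.01, and 12 quiescence genes had 0 calls in each of the 4 comparisons. Ccnd1, the D-type cyclin, was called lower in Mll4SI, at 28.5, 21.5, 11.7 and 16.8 CPM (-1.22, -1.80 to -0.80), and was at -0.81 without late-granule-rich cells. Immediate early genes did not move one way in Mll3/4SI, where 6 of 13 ratios were above 0 and the median was -0.015. Fos (1.27), Fosb (1.83), Jun (1.05) and Egr1 (1.25) were called higher, and Klf2 (-1.29) was called lower but had 0.36 without late-granule-rich cells. Fos was at 0.84 where 1 Mecom UMI was enough, and Jun at 0.96 without late-granule-rich cells. Jun was at 21.8, 20.6, 19.6 and 46.1 CPM. These genes also respond to cell handling, which was not tested. Hmga2, a chromatin protein of fetal stem cells, was at 59.4, 30.6, 45.1 and 21.4 CPM, with -1.43 in Mll3/4SI (-1.93 to -1.04).

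Among 13 measured genes of the H3K4 methyltransferase complexes none was called in any comparison. Kmt2c had ratios of -0.22 in Mll3SI (-0.36 to -0.08) and -0.14 in Mll3/4SI (-0.32 to 0.04). Kmt2d had -0.02 in Mll4SI (-0.34 to 0.29), and its Mll3/4SI ratio was -0.59 (-1.05 to -0.18). The X-linked Kdm6a, a demethylase subunit of the same complexes, was at 76.1, 81.4, 142 and 122 CPM, higher in the libraries that held Xist.

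Some of the largest ratios belonged to genes outside the lists. Apoe, the lipid carrier apolipoprotein E, was at 347, 239, 36.7 and 202 CPM, a ratio of -3.21 in Mll4SI (-3.5 to -3.0), and -3.47 and -3.08 by hashtag. It was 2.43 higher in Mll3/4SI than in Mll4SI (2.19 to 2.74). Apoe was low in Mll4SI in both large antibody groups, at 38.2 CPM against 546 in CD150-high CD48-high cells and 27.0 against 274 in CD150-low CD48-high cells. In the other cells it was at 87.4, 65.8, 11.9 and 25.4 CPM. Apoe was thus lowest in Mll4SI in each of these sets.

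Other genes followed the labels in pairs. Tpm3-rs7, a tropomyosin-related copy whose reads may be shared with its parent gene, was at 158, 5.41, 96.7 and 2.93 CPM, and 1700016D06Rik at 58.0, 3.84, 55.5 and 2.10 CPM. Both were low in the libraries whose labels carry the Mll3 alteration, Mll3SI and Mll3/4SI, and the other cells showed the same order at 201, 6.04, 116 and 5.52 CPM and 38.4, 3.03, 33.8 and 2.02 CPM. Slc16a11, a transporter gene, was at 0.787, 0.570, 11.2 and 27.7 CPM and Agbl4, a tubulin deglutamylase gene, at 0.590, 0.285, 33.3 and 13.4 CPM. Those were high in both libraries that carry the Mll4 alteration, which are also the female ones, so the alteration and sex cannot be told apart. A single cell held 40.6% of the Agbl4 UMIs of Mll3/4SI.

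Mll3SI alone was low in Tspan32, a tetraspanin of blood cells, at 98.7, 26.1, 88.8 and 118 CPM (-1.88, -2.17 to -1.67). It was also alone in holding little E230032D23Rik, at 19.9, 0.285, 9.93 and 20.1 CPM, where its 2 UMIs give a ratio interval of -9.19 to -4.23. Both genes lie on chromosome 7, at chr7:143005046-143019644 and chr7:143628024-143670614. Gm2a, a lysosomal lipid-binding protein gene, was at 59.0, 13.5, 38.4 and 24.7 CPM, and the actin-severing protein gene Scin at 12.98, 0.570, 13.2 and 25.2 CPM, with 48.5% of its control UMIs in 1 cell. Control alone was low in Pttg1, the securin of dividing cells, at 53.9, 126, 125 and 138 CPM, and in Lyrm7, a mitochondrial assembly factor, at 3.74, 19.6, 12.98 and 8.80 CPM. In the other cells Pttg1 was at 77.1, 167, 144 and 143 CPM, again lowest in control. Mll3/4SI was highest in St8sia6, a sialyltransferase gene, at 7.67, 2.56, 14.3 and 60.8 CPM (2.83, 2.47 to 3.54), and in the other cells at 7.39, 3.24, 9.44 and 39.6 CPM. The orders of the libraries for Apoe, Tpm3-rs7, 1700016D06Rik and St8sia6 were thus seen in the other cells of the libraries as well.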

How the data were processed

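Gene and antibody UMI counts per cell barcode were made by the authors with Cell Ranger 7.1.0 on mm10, per the submitters' processing notes, and deposited as raw counts for 32285 genes, 13 surface antibodies and 2 hashtags. The steps below start from these counts.

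Mecom+Hlf+ cells were selected by the rule given above. Their UMIs were summed within each library and scaled to CPM, and groups were compared as a log2 ratio of CPM plus 1. A gene was called when the ratio reached 1 in size and the exact conditional binomial 95% interval of the 2 counts left out 0. That interval is for the ratio without the added 1, so it need not centre on it. The code was run on simulated sums that carry counting error only, the error the intervals assume. Transcripts concentrated in single cells were not simulated, so that run cannot check the intervals for such genes. With 1 library per group no p-value was computed. Shares have Clopper-Pearson intervals, and ratios of shares combine both intervals. Antibodies are given as UMIs, shares or centred log-ratios. Scrublet (in scanpy 1.11.5) marked the top 0.8% of cells per 1000, and hashtag thresholds were 118 and 285 UMIs. Of the gene IDs, 32158 matched the GRCm38 annotation.

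The members and the gene lists were chosen with earlier results of these data known. The late granule limit and the CD150 and CD48 limits were also set after seeing the data. Genes named were those of the 22 lists past the fold, the 8 highest and 8 lowest ratios of each comparison and the 15 leading genes of the selected cells. Late neutrophil genes are given as counts only. Some genes the rule names are not reported here. Computation used Python 3.11.15, numpy 2.4.6, scipy 1.17.1, pandas 2.3.3 and matplotlib 3.10.9.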

Additional observations from a re-analysis of the deposited data

How the results depend on the processing

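No paired analysis was possible because each group has 1 library. Single genes kept their direction and stayed within their counting error in 1286 of 1617 repeats, moved in 315 and turned in 16. Of 147 single-gene ratios at or past the fold, 133 stayed past it with at least 1 Mecom UMI and 133 with at least 3. They numbered 135 without Scrublet's set, 133 without cells above both hashtag limits, 134 without late-granule-rich cells, 116 and 120 by hashtag, and 85 with 10 added to the CPM. Medians of the main lists (stem transcription factors, interferon, B-lymphoid and myeloid factors) stayed within the median counting error of their single genes in 183 of 192 repeats. In 8 they moved and in 1 the direction turned. That error is not the error of a list median. For the B-lymphoid list it was 0.999 to 2.55, so few moves there could exceed it. Medians of the other lists stayed within it in 795 of 864 repeats, moved in 55 and turned in 14. Alternatives with late-granule-rich cells removed, and the halved and doubled CD48 limits and the hashtag split of CD150-high CD48-low cells, were chosen after seeing the data. Unless a control is named, values compare with control, and "to Mll4SI" marks Mll3/4SI to Mll4SI. The cause of each move was not tested.

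The ratio of shares was 0.674 for Mll4SI and 0.624 to Mll4SI in thinned cells, 0.752 and 0.623 with late-granule-rich cells removed from both counts. With Hashtag1 cells it was 1.07 for Mll3SI, 0.342 for Mll4SI and 1.29 to Mll4SI, and with Hashtag2 cells 1.89 for Mll3SI and 0.608 for Mll4SI. The CD150-high CD48-low percentage was 20.3% in Mll3SI and 6.67% in Mll3/4SI with the CD48 limit halved, 24.8% in control and 0% in Mll4SI among Hashtag1 cells, and 9.33% in control and 31.8% in Mll3SI among Hashtag2 cells.

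Called genes numbered, in the order Mll3SI, Mll4SI, Mll3/4SI and to Mll4SI, 139, 514, 559 and 643 at a mean of 1 CPM, 9, 22, 41 and 48 at 50 CPM, and 17, 54, 68 and 115 with 10 added to the CPM. Hashtag1 cells gave 91, 196, 294 and 354. Hashtag2 cells gave 130, 273 and 374 in the first 3 comparisons. To Mll4SI there were 135 calls without Scrublet's set, 131 without cells above both hashtag limits and 122 without late-granule-rich cells. Cells with a Mllt3 UMI gave 51 in Mll3SI. Antibodies past 2-fold numbered 2 in Mll3SI, 1 in Mll3/4SI and 2 to Mll4SI without late-granule-rich cells, and 0 in Mll4SI and 2 to Mll4SI by centred log-ratio. The CD11b share turned in direction without late-granule-rich cells, from -1.23 to 0.66 in Mll3/4SI. In the comparison of Mll3/4SI with Mll4SI it went from -1.98 to 1.34.

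The interferon median was 0.89 in Mll3/4SI and 1.08 to Mll4SI with 10 added. Stem transcription factors in Hashtag2 cells had 0.31 in Mll3SI and -0.066 in Mll4SI. Myeloid factors had -0.26 in Mll3SI and -0.30 in Mll4SI in Hashtag2 cells, and in Mll4SI -0.29 without late-granule-rich cells and -0.30 without cells above both hashtag limits. To Mll4SI they had 0.078 without late-granule-rich cells. Granule genes in Mll3SI had -0.70 without Scrublet's set, -0.55 without cells above both hashtag limits, -0.27 without late-granule-rich cells, -0.11 as a mean over scaled cells, -0.18 in cells with a Mllt3 UMI, and -0.95 and -0.027 by hashtag. In Mll4SI they had -0.63 without cells above both limits and -0.82 and -0.52 by hashtag, and to Mll4SI 0.46 in Hashtag2 cells. To Mll4SI the D cyclins had -0.0029 without late-granule-rich cells and -0.042 in Hashtag2 cells, and MHC class II genes had -1.08 in Hashtag1 cells.

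Genes that turned in Hashtag1 cells were Car1 (-0.21), Cd74 (-1.67), H2-Aa (-0.45), H2-Eb1 (-1.46) and Tcf15 (-0.26) to Mll4SI, Mcpt8 in Mll4SI (0.58) and Mll3/4SI (0.20), H2-Eb1 in Mll3/4SI (-2.02) and Chil3 in Mll4SI (-1.19). In Hashtag2 cells they were Chil3 (-0.71) and Epor (0.29) in Mll4SI and Gp1bb (-0.19) and Pf4 (-1.44) in Mll3/4SI. Chil3 in Mll4SI had -1.04 without cells above both hashtag limits. Prss34 had 0.13 in Mll3SI and 0.30 in Mll3/4SI where at least 3 Mecom UMIs were required, and 99.5% of its control UMIs came from 1 cell. Mll3/4SI, with 90 cells, sets the lowest depth, where 3 UMIs equal 1.26 CPM.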
